A study of Mus musculus with 6 samples.

Results

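The genes described here encode transcription factors that direct blood cells into the granulocyte and monocyte lineages or keep progenitors immature: the C/EBP factors Cebpa, Cebpb, Cebpd, Cebpe and Cebpg, PU.1 (gene Spi1), Gfi1, Myb and Maf. They were chosen as a list of 9 symbols, and 8 of the 9 had an array row with a single gene symbol, among 30063 genes so named in all. The row of Spi1 carried 2 symbols, Spi1 and Sfpi1, which RefSeq holds as names of 1 gene, so its values come from a second fit that added such rows. Each of the 9 genes had 1 row. Megakaryocytes, the polyploid precursors of platelets, had been sorted from the bone marrow of female C57 mice by high side scatter, high CD41 and a DNA content of at least 8N. The AML group (acute myeloid leukaemia) came from mice with leukaemia induced by MLL-AF9, a fusion oncogene, and the control group from healthy mice, with 3 arrays in each and 6 in all. The arrays are labelled as biological replicates. The labels give neither the age of the mice, nor the promoter or vector of MLL-AF9, nor whether animals were pooled, so the spread behind each p-value is that between arrays and may in part be technical. Total RNA was hybridised to a whole-transcript array, and values are deposited log2 expression values.

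C/EBP proteins are leucine zipper factors that bind DNA as dimers. C/EBP alpha is needed to form granulocyte-monocyte progenitors, C/EBP epsilon for the late steps of granulocyte maturation, and C/EBP beta and delta act in emergency granulopoiesis and inflammatory gene expression. PU.1 is an ETS factor whose high activity favours monocytes and macrophages, GFI1 is a zinc finger repressor that opposes PU.1 and favours granulocytes, MYB sustains immature progenitors and is a known dependency of MLL-AF9 leukaemia, and c-MAF is a leucine zipper factor of macrophages. In the megakaryocyte lineage the paralog GFI1B and the factor GATA1 are the better known regulators.

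Gfi1 was higher and Maf was lower in the sorts of AML mice, and none of the other 6 genes tested with them passed the threshold, an adjusted p of 0.05 from limma. Of all genes tested, 10.7% passed, 4.49% higher and 6.25% lower in AML, against 1 higher and 1 lower of these 8. The largest difference upward was that of Myb, which spread widely between the AML arrays. The 5 C/EBP genes differed by less than 1.5-fold in either direction. Differences are AML minus control on the log2 scale, and ± gives the SD (n = 3). The median difference over all genes was +0.11, so that a gene with no change relative to the others stands slightly above 0. None of Gfi1, Myb, Maf, Cebpa, Cebpb, Cebpd and Cebpe changed direction under quantile normalization, median centring or cyclic loess. A level was called above background where it exceeded 5.51, the 95th percentile of the mean levels of 1718 olfactory and vomeronasal receptor genes, and the 9 genes exceeded it in both groups.

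**Figure D1:**
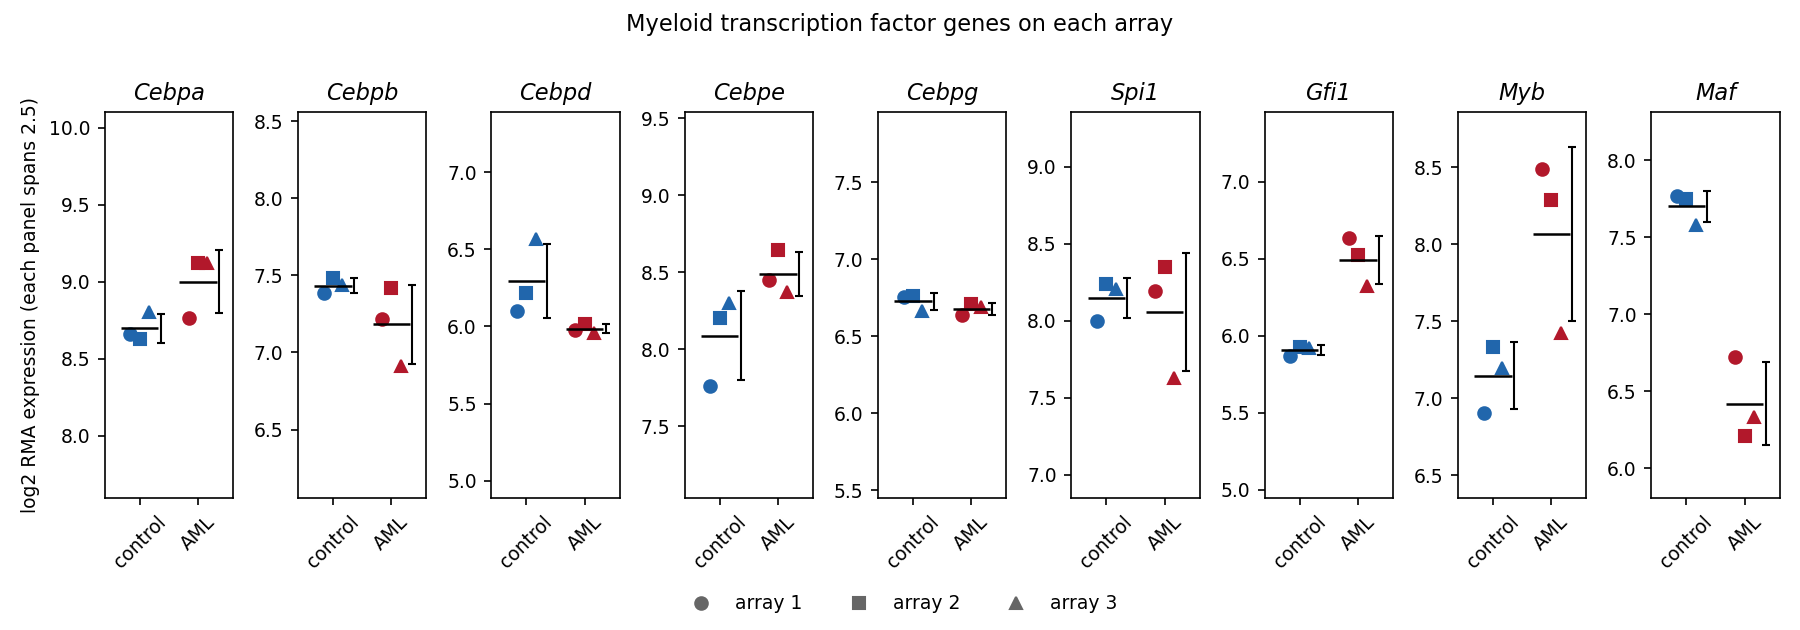
Log2 expression of the 9 genes on each array, in panels that span the same range of 2.5, with blue for control and red for AML, marker shapes for the replicate number, a line at the group mean and a bar of ± 1 SD (n = 3). The groups lie apart for Gfi1, Myb, Maf, Cebpd and Cebpe. AML array 3 lies lowest in its group for Gfi1, Myb, Spi1, Cebpb, Cebpd and Cebpe, by most for Myb (7.42) and Spi1 (7.62).

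The sorts carried a strong megakaryocyte signal in both groups, while markers of mature myeloid cells and of several other cell types stood lower in AML. Of 11 measured megakaryocyte markers, 0 passed with limma in either direction, and 0 had an unadjusted p under 0.05. The brightest 2, the platelet chemokine genes Ppbp and Pf4, stood at 12.23 ± 0.16 and 11.98 ± 0.22 in AML against 12.37 ± 0.17 and 12.09 ± 0.12 in control. The mean level of the megakaryocyte list was 9.44 to 10.20 on AML arrays, highest on AML array 3, and 9.47 to 9.88 on control arrays. Of the neutrophil, monocyte and macrophage markers, 9 of 10, 6 of 7 and 10 of 12 fell, and their mean levels lay between 8.55 and 8.89, 7.36 and 7.51, and 6.92 and 7.51 in AML against 10.09 to 10.32, 8.38 to 8.60 and 8.12 to 8.27 in control. The brightest macrophage markers were C1qb (difference -1.15) and Vcam1 (-0.69, limma adjusted p = 0.0891). Among the brightest neutrophil and monocyte markers, Ngp, Retnlg and Ms4a6c fell (differences -1.11, -1.06 and -1.31), whereas Ly6c2, a monocyte surface gene, stood at 12.27 ± 0.30 against 11.95 ± 0.10 (limma adjusted p = 0.187). Of 6 granulocyte-monocyte progenitor markers, 1 rose and 1 fell, with mean levels of 8.83 to 9.14 in AML and 8.85 to 9.32 in control. Of the markers of other cells, 4 of 5 of basophils and mast cells fell (brightest Prss34 and Mcpt8, differences -2.39 and -1.95), 4 of 7 of erythroid cells (brightest Epor and Slc4a1, +0.19 and -0.57, of which Epor did not pass), 4 of 6 of B cells (Cd79b and Cd79a, -0.39 and -0.43) and 2 of 5 of dendritic cells (Itgax and Siglech, -1.12 and -0.65). Of 5 stem and progenitor markers 1 rose, Cd34, with Kit the brightest. Of 5 T and NK cell markers (brightest Nkg7 and Cd3d, +0.10 and -0.38) 0 passed with limma. At an unadjusted limma p under 0.05 stood 3 of them. Of these 5, 4 had means at or below background in both groups, Cd3d among them. So did 3 of 5 stem and progenitor and 3 of 5 dendritic cell markers. Of the erythroid, B cell, and basophil and mast cell markers it was 2 of 7, 1 of 6 and 1 of 5. The AML mean of Siglech, 5.45, was also not above background. Changes of such genes may be understated. In bulk sorts like these, fewer cells of a type and less RNA per cell cannot be told apart, and the part of other cell types in the results below was not tested.

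**Figure D2:**
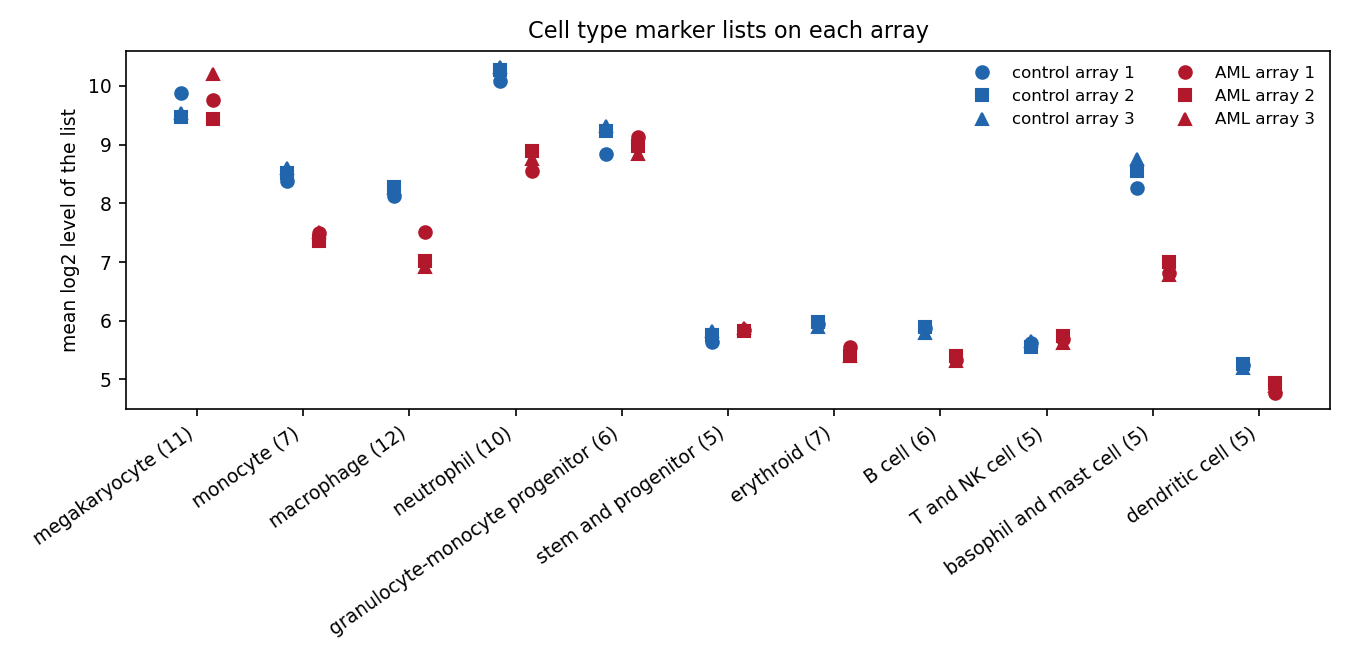
Mean log2 level of 11 cell type marker lists on each array (blue control, red AML, shapes for the replicate number), with the number of measured genes in brackets. The neutrophil, monocyte, macrophage and basophil and mast cell lists lie lower on the 3 AML arrays than on the 3 control arrays. The erythroid, B cell and dendritic cell lists do so too, and the stem and progenitor list lies slightly higher. The ranges of the megakaryocyte, granulocyte-monocyte progenitor and T and NK cell lists overlap.

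Gfi1, the repressor that opposes PU.1, stood at 6.63, 6.52 and 6.32 on AML arrays 1, 2 and 3 and at 5.87, 5.93 and 5.92 on control arrays 1, 2 and 3. The AML values lay above the control values, and the control arrays differed by 0.06 at most. The means were 6.49 ± 0.16 and 5.91 ± 0.03, a rise of +0.59 (SE 0.09, 95% CI 0.37 to 0.81, limma adjusted p = 0.0120). The difference was nearly the same without any 1 array, from +0.52 to +0.67, but the call was lost without control array 2 (limma adjusted p = 0.0573) or control array 3 (limma adjusted p = 0.0543). Without AML array 3 it was +0.67 (limma adjusted p = 0.0044).

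Myb, the factor that holds progenitors immature, stood at 8.49, 8.29 and 7.42 on AML arrays 1, 2 and 3 and at 6.91, 7.33 and 7.20 on control arrays 1, 2 and 3. The groups did not overlap, but AML array 3 lay just above the highest control array, far from the other two AML arrays. The means were 8.07 ± 0.57 and 7.15 ± 0.22, a 1.89-fold higher level (difference +0.92, 95% CI 0.28 to 1.56) that did not pass (limma adjusted p = 0.0727). Without AML array 3 the difference was +1.24 and passed (limma adjusted p = 0.0047), and it also passed with array weights (limma adjusted p = 0.0064), quantile normalization (limma adjusted p = 0.0467), cyclic loess (limma adjusted p = 0.0470) and without genes below the median level (limma adjusted p = 0.0472). With any other array left out it did not pass (limma adjusted p 0.146 to 0.179). AML array 3 had the highest mean of the megakaryocyte markers, 10.20, and the lowest AML mean of the granulocyte-monocyte progenitor markers, 8.83. Over all genes it also stood apart from AML arrays 1 and 2 (Pearson's r 0.986 and 0.982, against 0.994 between those arrays). The part of these traits in the low value of Myb was not tested.

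Maf, the macrophage factor c-MAF, stood at 6.72, 6.21 and 6.33 on AML arrays 1, 2 and 3 and at 7.77, 7.75 and 7.58 on control arrays 1, 2 and 3. Each AML array lay well below each control array. The means were 6.42 ± 0.27 and 7.70 ± 0.10, a 2.43-fold fall (difference -1.28, SE 0.14, 95% CI -1.61 to -0.95, limma adjusted p = 0.0030). Maf passed without each array in turn (difference -1.43 to -1.17) and in all 17 alternatives, with limma adjusted p from 0.0013 to 0.0218. Only 255 of the 30063 genes had a difference as low or lower. The mean level of the macrophage markers was also lower on each AML array (7.51, 7.02 and 6.92 on arrays 1, 2 and 3) than on each control array (8.12, 8.27 and 8.26). Within the AML group, array 1 was highest in Maf and in the macrophage mean, while array 2 had less Maf but a higher macrophage mean than array 3. Within the control group, array 1 had the highest Maf, 7.77 against 7.75 on array 2, and the lowest macrophage mean. The part of macrophages in the fall of Maf was not tested.

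**Figure D3:**
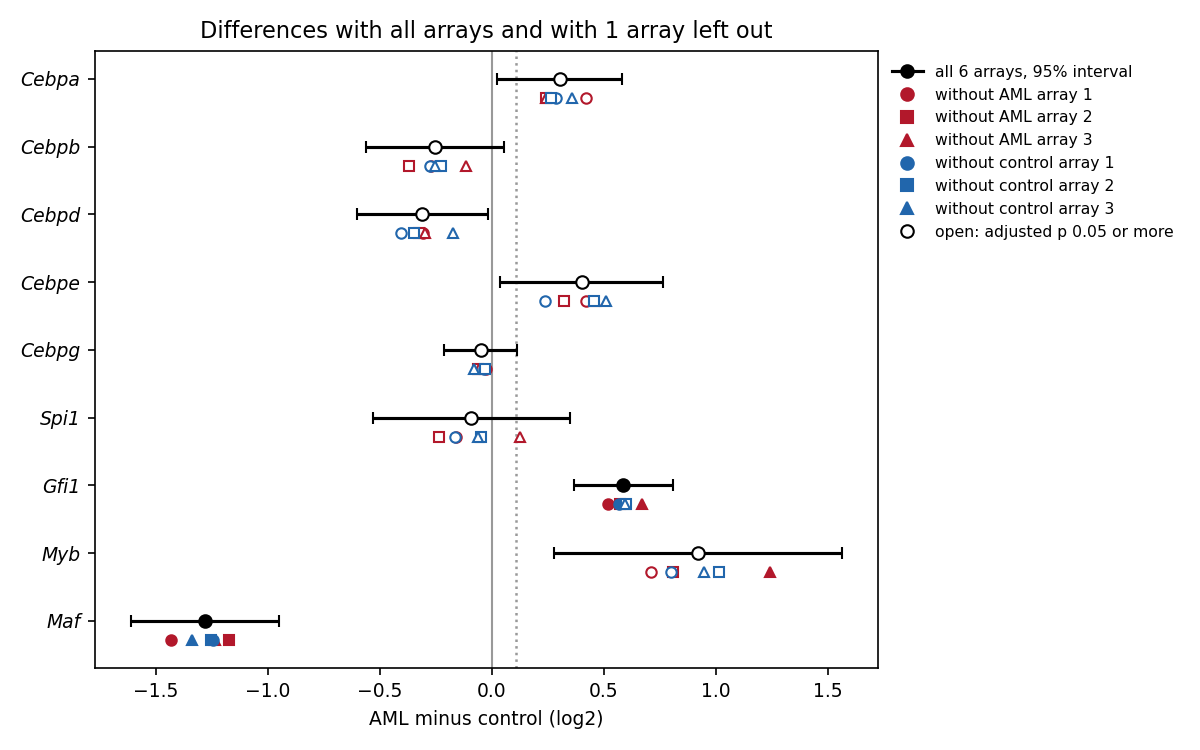
Difference of each gene, AML minus control on the log2 scale, as a black point with its 95% interval from all 6 arrays, and below it the difference with 1 array left out (red for an AML array, blue for a control array). Filled symbols passed an adjusted p of 0.05 with limma, the solid line is 0 and the dotted line is the median of all genes, +0.11; Maf is filled throughout, Gfi1 in 4 of 6 cases with an array left out, and Myb in 1 of 6.

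Among the C/EBP genes, those of the granulocyte programme stood slightly higher and those of the inflammatory response slightly lower in AML, without any of them passing. Cebpa, whose protein starts granulocyte-monocyte differentiation, stood at 8.76, 9.12 and 9.12 on AML arrays 1, 2 and 3 and at 8.66, 8.63 and 8.81 on control arrays 1, 2 and 3. AML array 1 lay below control array 3, so that the groups overlapped. The difference was +0.30 (95% CI 0.03 to 0.58, limma adjusted p = 0.130). Among 17 alternatives it ranged from +0.18 under median centring to +0.42 without AML array 1, and passed in 0 of them. Cebpe, whose protein drives late granulocyte maturation, stood at 8.45, 8.65 and 8.37 in AML and at 7.76, 8.20 and 8.30 in control. The groups did not overlap, but the control arrays spread over 0.54, with control array 1 lowest. The difference was +0.40 (95% CI 0.04 to 0.76, limma adjusted p = 0.127) and passed only under quantile normalization (+0.55, limma adjusted p = 0.0436) among 17 alternatives. Without control array 1 it was +0.24 (limma adjusted p = 0.195).

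Cebpb, a factor of inflammatory and emergency myeloid responses, stood at 7.22, 7.42 and 6.91 on AML arrays 1, 2 and 3 and at 7.38, 7.48 and 7.44 on control arrays 1, 2 and 3. The AML arrays spread over 0.51 and the second lay within the control range. The difference was -0.25 (95% CI -0.56 to 0.06, limma adjusted p = 0.213), and -0.12 both without AML array 3 and under quantile normalization. Cebpd, another factor of the inflammatory response, stood at 5.98, 6.02 and 5.96 in AML and at 6.10, 6.22 and 6.57 in control. Here the AML arrays were tight, the control arrays spread over 0.47, and the groups did not overlap. The difference was -0.31 (95% CI -0.60 to -0.02, limma adjusted p = 0.137), and the difference was -0.17 without control array 3. Cebpg, a widely expressed dimer partner of the other C/EBP proteins, ranged from 6.64 to 6.71 in AML and from 6.66 to 6.76 in control (difference -0.05, 95% CI -0.21 to 0.11, limma adjusted p = 0.624). In all, the groups lay apart in 5 of the 8 genes, 3 higher and 2 lower in AML, and this was so for 41.3% of all genes, 28.2% higher and 13.1% lower.

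Spi1, the gene of PU.1, stood at 8.19, 8.35 and 7.62 on AML arrays 1, 2 and 3 and at 8.00, 8.24 and 8.21 on control arrays 1, 2 and 3. AML array 3 lay below the other 5 arrays, while the other two AML arrays lay within or above the control range. The means were 8.06 ± 0.38 and 8.15 ± 0.13 (difference -0.09, 95% CI -0.53 to 0.35, limma adjusted p = 0.737). Without AML array 3 the difference turned to +0.12 (limma adjusted p = 0.405), so that no direction can be given.

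The balance between factors of alternative roles was compared as the difference of 2 genes on the same array, in 5 pairs, of which only the change between groups has a meaning. Cebpa minus Cebpb was 1.55, 1.70 and 2.21 on AML arrays 1, 2 and 3 and 1.28, 1.14 and 1.37 on control arrays 1, 2 and 3. Each AML array lay above each control array, and the balance was shifted toward Cebpa by +0.55, or +0.36 without AML array 3. Gfi1 minus Spi1 changed by +0.68, from -2.24 ± 0.10 to -1.56 ± 0.26, also with no overlap. Most of this change was that of Gfi1, which alone lay higher with no overlap (difference +0.59), while Spi1 differed by -0.09. The pair thus adds little support. Cebpe minus Cebpd was 2.47, 2.63 and 2.41 on the AML arrays and 1.66, 1.98 and 1.74 on the control arrays, a change of +0.71 with no overlap. Cebpe alone lay higher and Cebpd alone lower with no overlap, so this separation was fixed by them and adds no support. These 3 pairs had an exact two-sided permutation p of 0.1, the smallest that 3 against 3 arrays allow, and 0.167 after Benjamini-Hochberg adjustment over the 5 pairs. Cebpa minus Spi1 changed by +0.39 (exact permutation p = 0.3), with AML array 3 at 1.495 and the other 2 AML arrays at 0.57 and 0.77 near the control range of 0.39 to 0.67. Gfi1 minus Gfi1b, the balance of the myeloid and the megakaryocytic paralog, changed by +0.17 with overlapping groups (exact permutation p = 0.7). Gfi1b itself stood at 8.12 ± 0.26 against 7.70 ± 0.21 (difference +0.42, limma adjusted p = 0.125).

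The lists of partners and regulators of C/EBP factors, GFI1 and MYB held 1 call each. Such counts are small and near the share of all genes that passed, 10.7%, with 6.25% lower in AML. More genes passed in the list of relatives, partners and antagonists of PU.1. Of 7 measured genes of C/EBP dimer partners and degraders, 1 fell: Trib1, which recruits the ligase COP1 to C/EBP alpha, fell 1.98-fold from 7.74 ± 0.22 to 6.76 ± 0.44 (limma adjusted p = 0.0365), a call lost without AML array 1 or 2 or control array 2 or 3 (limma adjusted p 0.0548 to 0.134). Relative to all genes, the median of the list was -0.11. Of 7 genes of the GFI1 paralog and corepressors, 1 fell, the histone demethylase gene Kdm1a, with a difference of -0.42 (limma adjusted p = 0.0365), a call lost without the same 4 arrays (limma adjusted p 0.0863 to 0.139), and the median, +0.11, was that of all genes. Of 7 MYB paralogs and coactivators, 1 fell, the acetyltransferase gene Crebbp, with a difference of -0.54 (limma adjusted p = 0.0178, or 0.0835 when control array 2 was left out and 0.0774 when control array 3 was), and the relative median was -0.15.

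Of 13 relatives, partners and antagonists of PU.1, 4 fell and 1 rose (relative median -0.26). Irf8, a partner of PU.1 in monocyte and dendritic cell development, stood at 7.11, 6.72 and 6.87 on AML arrays against 7.51, 7.54 and 7.62 on control arrays, a 1.58-fold fall (limma adjusted p = 0.0139). Klf4, a zinc finger factor of monocytes, Irf4, another partner of PU.1, and Spic, the PU.1 relative of red pulp and marrow macrophages, also fell (differences -0.57, -0.97 and -1.05). Spic also stands in the macrophage marker list. The AML means of Irf4, 5.42, and Spic, 5.08, were not above background, so that the falls of these 2 genes may be understated. Nab2, a corepressor of EGR factors, rose by +0.54 (limma adjusted p = 0.0152). The calls of Irf8, Klf4 and Nab2 were lost without control array 2 or 3 (limma adjusted p 0.0634 to 0.0744), which left 2 falls and 0 rises. Runx1, which acts upstream of Spi1, stood at 7.79 ± 0.20 against 7.73 ± 0.22, and Gata1, the antagonist of PU.1 in megakaryocytes, at 6.29 ± 0.15 against 6.01 ± 0.08 (limma adjusted p = 0.761 and 0.110).

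Of 10 measured MAF proteins and their CNC partners, 2 fell and 0 rose with limma (1 rose at an unadjusted p under 0.05; relative median -0.28). Bach1, a repressor that binds DNA with small MAF proteins, fell by 0.62 (limma adjusted p = 0.0101, lost without control array 2 or 3 at 0.0531 and 0.0514). The small MAF gene Mafk fell by 0.31 (limma adjusted p = 0.0465), and lost its call without any 1 array (limma adjusted p 0.0599 to 0.152), under quantile normalization (difference -0.17, limma adjusted p = 0.165) and under cyclic loess (limma adjusted p = 0.0926). Nfe2, the partner of small MAF proteins in platelet release, stood at 7.88 ± 0.13 against 7.48 ± 0.18 (limma adjusted p = 0.0674).

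**Figure D4:**
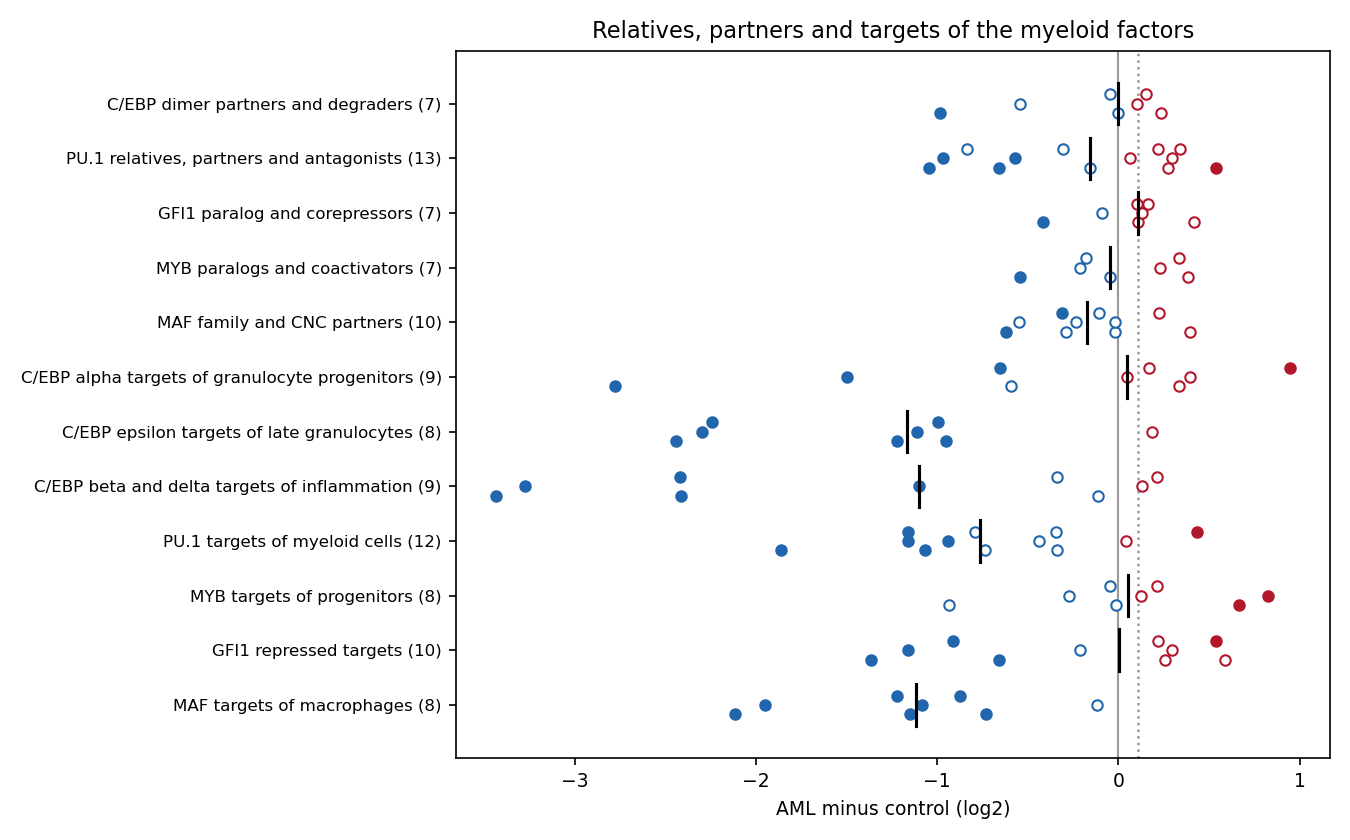
Difference of each measured gene, AML minus control on the log2 scale, in 12 lists of relatives, partners and targets of the factors, with the number of measured genes in brackets. Red is above and blue below 0, filled symbols passed an adjusted p of 0.05 with limma, black bars are list medians, the solid line is 0 and the dotted line the median of all genes; 7 of 8 C/EBP epsilon targets and 7 of 8 MAF targets are filled on the lower side.

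Of 8 measured targets of C/EBP epsilon in late granulocytes, 7 fell and 0 rose with limma, also 0 at an unadjusted p under 0.05 (median -1.17, or -1.27 relative to all genes). Camp, a cathelicidin of secondary granules, fell 5.42-fold from 12.46 ± 0.15 to 10.02 ± 0.24, and Ltf, lactoferrin, fell 4.91-fold from 10.18 ± 0.19 to 7.88 ± 0.12 (limma adjusted p = 3.81e-04 and 2.99e-04). Mmp8, Lcn2, Ngp and Itgb2l also fell (differences -2.24, -1.22, -1.11 and -0.95), as did Cd177, from 7.46 ± 0.31 to 6.47 ± 0.17, and Mmp9 stood at 7.41 ± 0.16 against 7.23 ± 0.21. The call of Cd177 was lost without control array 2 (limma adjusted p = 0.0657) or 3 (limma adjusted p = 0.0626). Of the 8, 6 also stand in the neutrophil marker list, whose mean level was lower on each AML array, and the part of neutrophils was not tested.

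Targets of C/EBP alpha in granulocyte progenitors split. Of 9, 1 rose and 3 fell, with a median of -0.06 relative to all genes. Of the 9, 6 are also the granulocyte-monocyte progenitor markers, so that the rise and the fall counted there are those of Ctsg and Fcnb. Ctsg, cathepsin G of primary granules, stood at 9.11, 9.14 and 8.73 on AML arrays 1, 2 and 3 against 7.69, 8.09 and 8.37 on control arrays 1, 2 and 3 (1.93-fold, limma adjusted p = 0.0251). Its call was lost without AML array 1 or 2 or control array 2 (limma adjusted p 0.0682 to 0.0915). Of the other primary granule genes in the list, Prtn3, proteinase 3, stood at 8.78 ± 0.20 against 8.39 ± 0.22 with no overlap (limma adjusted p = 0.120). Elane and Mpo stood at 10.96 ± 0.11 and 10.32 ± 0.11 against 10.62 ± 0.17 and 10.27 ± 0.29 (limma adjusted p = 0.0889 and 0.824). Fcnb, ficolin B, fell 6.86-fold (difference -2.78), Lyz2, the lysozyme of granulocytes and macrophages, fell from 11.03 ± 0.09 to 9.53 ± 0.29, and Il6ra, an interleukin 6 receptor chain, fell 1.57-fold. The call of Il6ra was lost without AML array 1 or 2 or control array 2 or 3 (limma adjusted p 0.0834 to 0.120), under quantile normalization (limma adjusted p = 0.0723) and under cyclic loess (limma adjusted p = 0.0704).

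Of 9 inflammatory targets of C/EBP beta and delta, 5 fell and 0 rose with limma, also 0 at an unadjusted p under 0.05 (median -1.21 relative to all genes), although Cebpb and Cebpd differed by less than 1.5-fold. The cytokine gene Il6 fell 10.8-fold, Il1b 9.67-fold, the chemokine gene Ccl2 5.34-fold and Ptgs2, the inducible cyclooxygenase, 5.33-fold. The AML mean of Il1b was 7.26 ± 0.57, with array 3 lowest at 6.60, as it was for Gfi1, Myb, Spi1, Cebpb, Cebpd and Cebpe. Cxcl1, a neutrophil chemokine, fell from 6.18 ± 0.22 to 5.08 ± 0.18, a level not above background, so that its fall may be understated. These 5 passed without each array in turn (limma adjusted p up to 0.0300 over all alternatives). The remaining 4 were Saa3, Nos2, Arg1 and Csf3, and 3 of the 9 genes had means at or below background in both groups.

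Of 12 measured targets of PU.1, 5 fell and 1 rose (median -0.87 relative to all genes), while Spi1 itself gave no direction. Cybb, the catalytic subunit of the phagocyte oxidase, stood at 8.65, 8.76 and 8.38 on AML arrays 1, 2 and 3 against 10.28, 10.53 and 10.57 on control arrays 1, 2 and 3, a 3.64-fold fall (limma adjusted p = 6.11e-04). Csf1r, the receptor of macrophage colony-stimulating factor, the Fc receptor gene Fcgr1 and the macrophage gene Adgre1 also fell (differences -1.16, -1.16 and -1.07). Csf1r also stands in the monocyte marker list and Adgre1 in the macrophage marker list, and the part of these cells was not tested. The scavenger receptor gene Msr1 fell (difference -0.94) to an AML mean of 4.67 that was not above background. Btk, a tyrosine kinase of B and myeloid cells, rose by +0.44 (limma adjusted p = 0.0451). Its call was lost without AML array 1 or 3 or any 1 control array (limma adjusted p 0.0600 to 0.150), and under median centring (limma adjusted p = 0.113), and that of Adgre1 without control array 2 (limma adjusted p = 0.0718) or 3 (limma adjusted p = 0.0713). Itgam and Cd68, also of this list, had differences of -0.74 and -0.79 and missed the threshold (limma adjusted p = 0.0502 and 0.0516).

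The targets of MAF in macrophages fell together with Maf. Of 8, 7 fell and 0 rose with limma, also 0 at an unadjusted p under 0.05 (median -1.22 relative to all genes). Leaving out control array 2, or control array 3, left 4 falls. Mrc1, the mannose receptor, fell 3.87-fold from 8.82 ± 0.08 to 6.86 ± 0.37 (limma adjusted p = 0.0015), and the scavenger receptor gene Cd163 fell 2.33-fold from 6.95 ± 0.04 to 5.73 ± 0.06 (limma adjusted p = 3.81e-04). Il10, a cytokine gene bound by c-MAF, fell (difference -2.12) to 4.44, not above background. The folate receptor gene Folr2 fell 1.83-fold and stayed above background. The complement genes C1qa, C1qb and C1qc fell (differences -1.08, -1.15 and -0.73), and lost their calls without control array 2 or 3, C1qa also without AML array 2 or 3 and C1qb without AML array 2 (limma adjusted p 0.0521 to 0.127). Of the 8, 5 also stand in the macrophage marker list.

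Of 8 measured targets of MYB in progenitors, 2 rose and 0 fell with limma (2 fell at an unadjusted p under 0.05; median -0.05 relative to all genes). Cd34, a sialomucin of progenitors, stood at 7.35, 7.31 and 7.54 on AML arrays 1, 2 and 3 against 6.55, 6.65 and 7.01 on control arrays 1, 2 and 3 (1.58-fold, limma adjusted p = 0.0264), and the glutathione transferase gene Gstm1 rose by +0.83 (limma adjusted p = 0.0261). Both calls were lost without AML array 1 or 2 or control array 1, that of Cd34 also without control array 2 and under median centring (limma adjusted p = 0.0622), and that of Gstm1 also without control array 3 (limma adjusted p 0.0571 to 0.110). Kit, a receptor of progenitors, stood at 7.24 ± 0.23 against 7.03 ± 0.26. Cxcr4 and Flt3 lay lower with no overlap but did not pass (differences -0.94 and -0.27, limma adjusted p = 0.0592 and 0.0515). The mean of Flt3 was not above background in either group. Of the 8, 3 also stand in the stem and progenitor marker list. Of 10 measured genes that GFI1 is known to repress, 4 fell and 1 rose with limma (5 fell and 3 rose at an unadjusted p under 0.05; median -0.10 relative to all genes). Id2, an inhibitor of E proteins, and Csf1, macrophage colony-stimulating factor, fell (differences -1.37 and -0.91), beside Irf8 and Csf1r, which also stands in the monocyte marker list. Nab2 rose, and Id1 lay higher with no overlap but did not pass (difference +0.26, limma adjusted p = 0.0640). Leaving out control array 2, or control array 3, left 2 falls and 0 rises, and the call of Csf1 was lost without AML array 1 or any 1 control array (limma adjusted p 0.0612 to 0.160) and under quantile normalization (limma adjusted p = 0.0724).

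Over the 6 arrays, the pattern of each factor was compared with the genes at or above the median level by Pearson's r, as a description across arrays that share 2 groups. The 3 genes most like Myb were Tut1, Mybl2 and Cdh22 (r 0.996 to 0.999), of which Mybl2 is its paralog of the cell cycle, at 6.74 in AML and 6.36 in control. Most like Maf were Clec4a1, Naaladl1 and Gpr65 (r 0.998), and Clec4a1, a C-type lectin of myeloid cells, stood at 6.08 in AML and 8.09 in control. Most like Gfi1 were Plscr3, Nagpa and Fut7 (r 0.999), of which Fut7 makes selectin ligands of leukocytes. Of about 15031 genes searched, 335, 489 and 471 had an r above 0.95 with Myb, Maf and Gfi1, so that these few are not set apart by much. The closest were Gm20675, Gm23123 and Eva1b for Cebpa (r 0.992 to 0.998), Smo, Gpr171 and Hspa4l for Cebpb (r 0.993 to 0.994) and Ttc1, 2610001J05Rik and Gm23502 for Cebpd (r 0.990 to 0.997). For Cebpe they were Ergic1, Dtd2 and Dus4l (r 0.989 to 0.993), for Spi1 Jup, Mns1 and Traf4 (r 0.987 to 0.995), and for Cebpg, whose level hardly varied, Spsb2, Mir3961 and Sult1a1 (r 0.942 to 0.954).

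Promoter windows of RefSeq (build GRCm38.p6), from 250 bases before to 50 after a start, were matched by symbol for 5 of the 9 genes: Cebpa, Cebpb, Cebpg, Myb and Gfi1, the last with 2 starts. They were searched on both strands for short words of the factors themselves: TTGCNNAA for C/EBP, GAGGAA for PU.1, AAATCA for GFI1, TAACNG or CAACNG for MYB, and TGCTGA for MAF. Of 32851 windows of this length, 10.8%, 28.3%, 14%, 49.7% and 19.5% held them. The windows of Gfi1 and Myb are shown because these genes had the largest upward differences, and that of Cebpa because its difference was also upward; capitals mark matches.
Gfi1, first start, chr5:107725756-107726055, minus strand: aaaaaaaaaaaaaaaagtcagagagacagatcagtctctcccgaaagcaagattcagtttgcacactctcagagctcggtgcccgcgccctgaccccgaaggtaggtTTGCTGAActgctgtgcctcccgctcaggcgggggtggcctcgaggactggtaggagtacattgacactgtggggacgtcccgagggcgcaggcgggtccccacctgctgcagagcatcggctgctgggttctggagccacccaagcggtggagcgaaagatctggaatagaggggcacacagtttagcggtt
Gfi1, second start, chr5:107724294-107724593, minus strand: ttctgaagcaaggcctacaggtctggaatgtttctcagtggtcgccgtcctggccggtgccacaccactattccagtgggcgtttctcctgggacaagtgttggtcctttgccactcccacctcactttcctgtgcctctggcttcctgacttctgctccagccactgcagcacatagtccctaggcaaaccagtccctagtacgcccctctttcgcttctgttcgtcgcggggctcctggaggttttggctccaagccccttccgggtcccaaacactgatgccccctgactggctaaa
Myb, chr10:21160935-21161234, minus strand: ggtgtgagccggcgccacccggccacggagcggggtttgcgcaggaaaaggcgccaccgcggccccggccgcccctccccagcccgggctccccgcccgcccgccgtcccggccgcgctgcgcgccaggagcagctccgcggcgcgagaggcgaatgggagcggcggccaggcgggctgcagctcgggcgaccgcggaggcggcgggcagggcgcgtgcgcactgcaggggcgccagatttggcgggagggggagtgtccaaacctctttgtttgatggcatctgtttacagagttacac
Cebpa, chr7:35119043-35119342, plus strand: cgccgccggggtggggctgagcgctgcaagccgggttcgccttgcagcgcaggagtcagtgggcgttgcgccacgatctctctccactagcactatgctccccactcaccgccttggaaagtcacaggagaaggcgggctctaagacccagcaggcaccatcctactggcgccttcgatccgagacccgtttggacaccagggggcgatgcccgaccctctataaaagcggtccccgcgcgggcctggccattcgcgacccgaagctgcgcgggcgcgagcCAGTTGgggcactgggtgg
The first Gfi1 window held 1 C/EBP word, TTGCTGAA, from position -143 relative to the start, which contains the MAF word from -142. The second Gfi1 window and the window of Myb held 0 of the words. The window of Cebpa held 1 MYB word, CAGTTG on the opposite strand, from position 32 after the start. The window of Cebpb also held 1 MYB word, CCGTTG on the opposite strand, from position 3, and that of Cebpg held 0 of the words. A match is a description of letters, and bears on no binding in these cells.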

How the data were processed

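Per the labels' protocols, cells were collected in Trizol and 250 ng of RNA per array was turned into labelled cDNA. The authors deposited log2 expression values made by RMA, which scales arrays to a common distribution, per the submitters' processing notes; version and array build are not given in the sources used here. After such scaling, a true shift of RNA common to all genes cannot be measured. The deposited values still held an offset: the median difference over all genes, +0.11, was +0.01 after quantile normalization of these values. The medians of the AML arrays were 5.29 to 5.32, those of the control arrays 5.16 to 5.24.

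Of 72688 rows, 30604 had 1 gene symbol, updated through a RefSeq table (GRCm38.p6), and the brightest row of each gene was kept, which left 30063 genes. The second fit added 639 genes whose several symbols RefSeq holds as names of 1 gene, Spi1 among them. limma (3.58.1, R 4.3.3; lmFit and eBayes, no covariate, no filter) compared the groups in a two-sided test. A gene passed at a p-value of 0.05 after adjusting over all genes (Benjamini-Hochberg). Within-array differences had an exact two-sided permutation test; a further planned pair is not reported here. The fit was tested on simulated data. Tables and plots were made in Python 3.11.15 (pandas 2.3.3; matplotlib 3.10.9).

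The factors and the 12 target and 11 marker lists were chosen with earlier results of these data known, from textbook knowledge. Named were the 9 factors, each list gene past the threshold, the 2 brightest genes of each marker list, and the 3 genes most like each factor; any other gene was chosen after its values were seen. Of 3 settings for scaling, 2 for dim genes and 6 for arrays left out, among others, the effect is given at the end.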

Additional observations from a re-analysis of the deposited data

How the results depend on the processing

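Of the values of the factors and the changed list genes under alternatives, 771 kept their direction and side of the threshold, 97 (20 genes) lost the call, 6 (Myb and Cebpe) gained it and 4 reversed. The reversed values were those of Cebpg under quantile normalization (0.022) and of Spi1 without AML replicate 3 (0.12), under quantile normalization (0.058) and with array weights (0.0067); all fits of Spi1 use the added rows, a choice made after seeing the data, and with 1 array left out its difference ranged from -0.24 to 0.12. Of the 8 factors, 1 rose, and 2 did so with array weights, cyclic loess or without genes below the median level, 3 under quantile normalization, and 0 with a 2-fold minimum; with 1 array left out the number was 0 to 2. Maf stayed lower throughout. Over all genes, 1350 rose and 1880 fell. The numbers were 4839 and 3014 with array weights, 439 and 1126 with a 1.5-fold and 115 and 447 with a 2-fold minimum, and 185 to 1639 and 782 to 1967 with 1 array left out; 505 rose and 2712 fell under median centring, and 764 rose when each row of the table was tested. Same-numbered arrays did not deviate together more than the others did (correlations of -0.36, 0.14 and -0.29 against -0.28 to 0.43). No pairing by number was thus shown, but deviations within 3 arrays a group cannot exclude one. With the replicate number as a block, 206 genes rose and 861 fell, 0 of the 8 factors rose, with Gfi1 at an adjusted p of 0.0557, and Maf fell. The causes were not tested. The number of arrays, 3 a group, limits the precision, and differences that reach levels near background may be understated.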
